A study of Mus musculus with 22 samples.

Results

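The Notch receptors *Notch1*, *Notch2* and *Notch3*, the ligands *Dll1*, *Dll3* and *Jag1*, and the transcriptional repressors *Hes1*, *Hes5*, *Hes6* and *Hey1* were followed across cell types of the mouse with and without *Phf8*. These 10 genes are members of 1 signalling pathway, were found by gene identifier among the 39179 genes of the count tables, and all 10 had reads. *Phf8* is an X-linked gene for a histone demethylase. The genes were chosen by pathway membership and, in one respect, selected on measured values, since the *Hes6* counts were known to be higher in both *Phf8* knockout (KO) embryonic stem cell (ESC) cultures. For that reason the comparison of KO and wild-type (WT) ESCs is given as a description, without a test, for every gene.

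RNA from 22 samples was sequenced, and the labels give all of them the background B6x129SvJ, which the study's methods write as mixed C57B6/129SvJae. The KO allele lacks exons 7 and 8 of *Phf8*, which encode part of the catalytic JmjC domain, in all cells. It was made in male V6.5 ESCs, and WT samples carry the intact gene. ESCs came from blastocyst outgrowths and were kept on gelatin or feeder cells (2 WT and 2 KO samples). Neural progenitor cells (NPCs) came from embryos at stage E16.5 and grew as a monolayer on polyornithine (3 WT and 3 KO). Prefrontal cortex (PFC) and ventral striatum (STR) were taken from mice 2 months old (3 WT and 3 KO for each region). The labels do not say whether the samples of a group came from separate cultures or animals, so p-values measure the spread between these samples only. Counts on genes summed to between 5898286 and 15539811 per sample. *Phf8* itself, in CPM (reads of a gene set against the TMM-scaled size of its library), was 38.5 to 71.2 in WT and 13.4 to 22.3 in KO samples, with every KO sample below every WT sample. The counts are per gene and do not resolve the deleted exons.

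Notch receptors are cleaved when a ligand on a neighbouring cell binds them, and the released intracellular part enters the nucleus, where it joins the DNA-binding protein RBPJ and switches on target genes such as *Hes1*, *Hes5* and *Hey1*. These targets encode basic helix-loop-helix (bHLH) repressors that hold back proneural factors, and in the developing brain this keeps part of the progenitors undifferentiated. *Hes6* is the odd member, since it is known as a gene induced by proneural factors whose product counteracts Hes1. *Dll3* is likewise known as a gene switched on by proneural factors, and its product acts on Notch within the same cell.

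The sequences just upstream of *Hes5* and *Hes6* are shown because *Hes5* had the largest difference between tissues and *Hes6* the difference in ESCs for which the genes were chosen. Of the 10 members, 8 had an entry in the RefSeq promoter set for GRCm38.p6, and the 250 bases before each annotated start were searched on both strands for GTGGGAA, the core of the RBPJ motif, and for CAGCTG, an E-box of the kind bHLH proteins bind. The 2 motifs share no bases. *Hes1* and *Hey1* had no entry and were not searched. Of the 8 members searched, *Hes5* was the single one with a GTGGGAA match, and it had 2, on opposite strands, beginning 226 and 83 bases before the start. Both *Hes6* starts had 1 CAGCTG match each and no GTGGGAA match. CAGCTG was not particular to *Hes6*: the windows of *Jag1*, *Dll3* and 1 start of *Dll1* held it too, which makes 5 of the 10 windows of members. Among all 32851 upstream windows of the set, 5.42% held GTGGGAA and 13.0% held CAGCTG. A match is a description of letters and not a measured binding site. The *Hes5* window lies at chr4:154960673-154960922 on the plus strand, and the *Hes6* windows at chr1:91414039-91414288 and chr1:91413223-91413472 on the minus strand, the latter inside the gene. Capitals mark the matches.
Hes5 upstream: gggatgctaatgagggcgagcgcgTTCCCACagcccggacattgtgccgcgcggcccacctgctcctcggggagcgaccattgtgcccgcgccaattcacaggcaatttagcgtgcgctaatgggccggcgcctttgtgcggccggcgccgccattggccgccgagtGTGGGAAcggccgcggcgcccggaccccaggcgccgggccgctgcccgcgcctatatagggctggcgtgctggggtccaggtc
Hes6 upstream, first start: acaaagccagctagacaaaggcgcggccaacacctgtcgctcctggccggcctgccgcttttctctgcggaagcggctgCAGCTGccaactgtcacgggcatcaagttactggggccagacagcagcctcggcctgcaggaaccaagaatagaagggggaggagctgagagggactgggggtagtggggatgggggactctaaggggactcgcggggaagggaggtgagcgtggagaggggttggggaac
Hes6 upstream, second start: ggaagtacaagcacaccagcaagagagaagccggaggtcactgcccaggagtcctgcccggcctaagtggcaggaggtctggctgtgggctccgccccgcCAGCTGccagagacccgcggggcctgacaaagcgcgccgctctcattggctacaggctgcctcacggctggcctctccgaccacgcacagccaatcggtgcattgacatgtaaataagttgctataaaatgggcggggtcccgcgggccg

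Each member was measured over the exons of its gene on GRCm38. Among the receptors, *Notch1* lies at chr2:26457903-26516663 and *Notch3* at chr17:32120820-32166852 on the minus strand, and *Notch2* at chr3:98013527-98150361 on the plus strand. The ligand genes *Dll1* (chr17:15367354-15376872), *Dll3* (chr7:28293553-28302238) and *Jag1* (chr2:137081456-137116644) are all on the minus strand. The repressor genes are *Hes1* (chr16:30064384-30067796) and *Hes5* (chr4:154960923-154962371) on the plus strand and *Hes6* (chr1:91411483-91414038) and *Hey1* (chr3:8663359-8667256) on the minus strand. Other annotated genes overlap 31.8% of the exon bases of *Hes5* and 20.6% of those of *Dll1*. The ESC and NPC tables were counted without strand and no strand setting was found for the brain tables, so reads in these stretches cannot be told apart from those of the overlapping gene. The overlapping genes *Gm20421* and *A930024N18Rik* had 34 and 781 counts over all samples.

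The samples carried the markers of their labels, with exceptions that touch the members. Summed over the 8 ESC markers, ESC samples had 5139 to 6155 CPM and NPC samples 622 to 760 CPM, and summed over the 8 NPC markers, NPC samples had 7473 to 9937 CPM. In ESCs the markers of feeder fibroblasts summed to 154 to 164 CPM in replicate 1 of each genotype and to 3618 to 4398 CPM in replicate 2. In NPCs the oligodendrocyte markers summed to 219 CPM in WT replicate 2 and 411 CPM in KO replicate 2, against 1872 to 3117 CPM in the other 4 samples. In STR, KO replicate 1 had 144 CPM of hypothalamus markers against 7.21 to 21.2 CPM in the other 5 samples, and 64.0 CPM of excitatory cortical neuron markers against 320 to 492 CPM. In PFC, oligodendrocyte markers were lower in every KO sample (1384 to 1477 CPM) than in every WT sample (1690 to 2243 CPM). Astrocyte markers were lower in every PFC KO sample (861 to 910 CPM) than in every PFC WT sample (937 to 1019 CPM), and higher in every STR KO sample (890 to 973 CPM) than in every STR WT sample (838 to 879 CPM). Of the 14 marker sums, 5 did not overlap between genotypes in ESCs, 0 in NPCs, 3 in PFC and 5 in STR, among the last choroid plexus (74.8 to 88.5 CPM in KO and 65.2 to 72.9 CPM in WT). Groups this small can separate by order alone. Among single genes, every KO sample lay above every WT sample for 11.3% in ESCs, 8.70% in PFC and 6.84% in STR. Every KO sample lay below for 9.46%, 8.42% and 6.30%. In ESCs the astrocyte sum was higher in KO (279.9 to 313 CPM) than in WT cultures (220.01 to 275 CPM) and the neuron sum lower (476 to 478 CPM against 517 to 526 CPM). Such sums need not mean that these cell types were present in the cultures. The part of these differences in the results below was not tested, and in bulk RNA fewer cells of a type cannot be told apart from less RNA per cell.

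To compare genes with each other, counts were scaled to gene length as RPKM (the CPM divided by the exon length in kilobases). The full exon length was used, so the RPKM of *Hes5* and *Dll1* can be too low where reads on overlapping genes went uncounted. In WT ESCs the repressors *Hes1* (25.4 ± 10.5 RPKM, SD, n = 2) and *Hes6* (14.98 ± 0.173 RPKM, SD, n = 2) and the receptor *Notch3* (11.5 ± 0.888 RPKM, SD, n = 2) stood highest. *Jag1* and *Dll1* had overlapping levels of 7.10 and 7.04 RPKM, as had *Notch2* and *Notch1* with 3.93 and 3.92 RPKM. *Hey1* and *Dll3* had 1.64 and 1.32 RPKM, and *Hes5* was near the floor at 0.112 RPKM. In WT NPCs *Hes6* led with 93.2 ± 10.2 RPKM (SD, n = 3), above every value of the next gene. *Hes1*, *Hes5*, *Notch3*, *Notch1*, *Dll1*, *Hey1* and *Dll3* followed between 30.8 and 19.8 RPKM, each overlapping its neighbour in this order. *Jag1* had 10.5 RPKM, overlapping *Dll3*, and *Notch2* was lowest with 3.73 RPKM. In WT PFC *Hey1* led with 23.9 ± 0.700 RPKM (SD, n = 3), followed by *Hes6* (12.04 RPKM), *Hes1* (8.73 RPKM) and *Hes5* (8.12 RPKM), the last pair overlapping. The 3 receptors, *Jag1* and *Dll1* were between 2.13 and 1.36 RPKM, each overlapping the next, and *Dll3* was lowest at 0.729 RPKM. In WT STR *Hey1* again led with 25.2 ± 0.757 RPKM (SD, n = 3), and *Hes5* (12.8 RPKM) overlapped *Hes6* (11.8 RPKM). The repressors were thus the highest members in both brain regions, and ligands and receptors ranked below them.

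**Figure D1:**
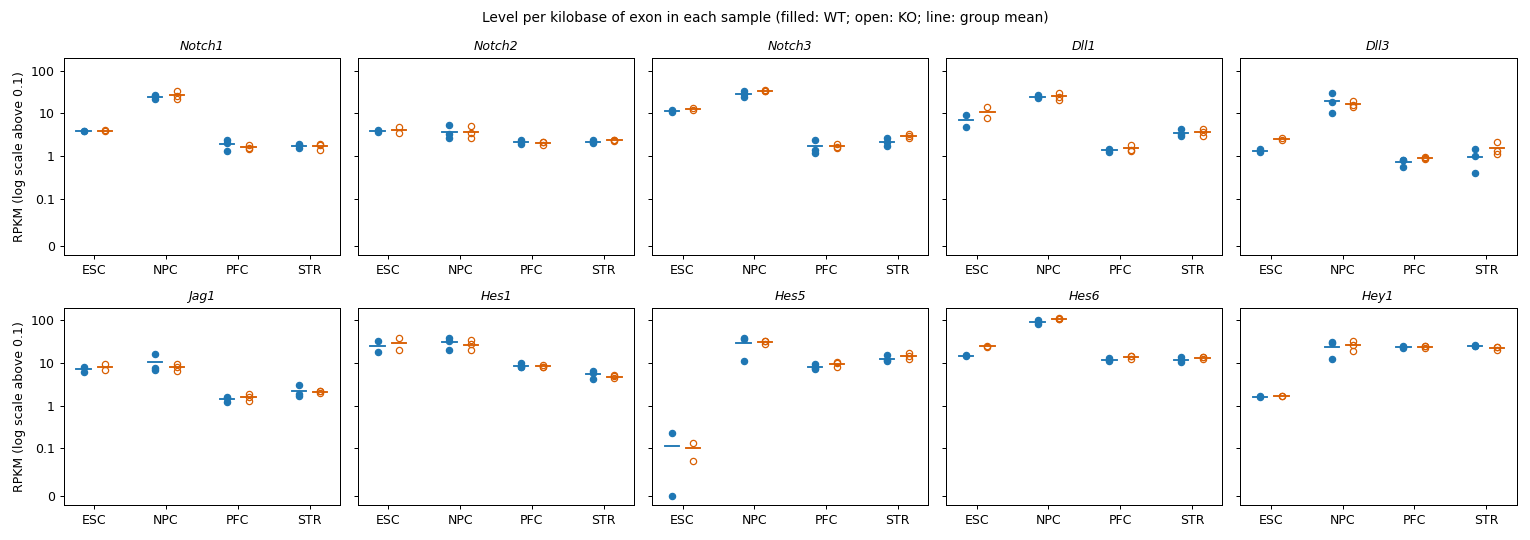
Level of each of the 10 members in RPKM (vertical axis, log scale above 0.1 and linear below it) in ESCs, NPCs, PFC and STR; each point is a sample, filled for WT and open for KO, and lines are group means. *Hes6* reaches its highest level in NPCs, *Hes5* lies near 0 in ESCs, and *Hey1* in both brain regions lies within its NPC range.

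The first tissue comparison asked how the pathway differs between WT NPCs and WT ESCs. Cell type, stage of origin and culture conditions, feeder cells among them, change together in it and cannot be told apart. The share of entries counted as not uniquely aligned differed, at 43.2% and 45.2% in WT ESCs and 33.8% to 34.1% in WT NPCs. Of the 10 members, 7 were higher in NPCs and 0 lower in edgeR's quasi-likelihood test with a false discovery rate (FDR, Benjamini-Hochberg) under 0.05, where 32.2% of the 17672 genes tested were higher, 39.8% lower and 72.0% changed in either direction. The median log2 fold change of the members was 2.17, beside -0.13 over all genes tested. The receptor *Notch1* had 55.4 and 56.2 CPM in ESCs and 310, 369 and 378 CPM in NPCs. Its levels did not overlap, and it rose by 2.61 on the log2 scale (SE 0.20, FDR 4.56e-07, edgeR). *Notch3* rose by 1.28 (SE 0.25, FDR 0.000865, edgeR), from 87.9 and 98.0 CPM to 198, 232 and 268 CPM. *Notch2* was the receptor without a call (log2 difference -0.13, SE 0.25, FDR 0.669, edgeR), with 40.3 and 44.6 CPM in ESCs inside the NPC range of 27.8 to 57.8 CPM.

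Both Delta ligands were also higher in NPCs. *Dll1*, the ligand presented by differentiating neighbours, had 39.2 and 20.2 CPM in ESCs and 114, 99.4 and 96.9 CPM in NPCs, a log2 difference of 1.75 (SE 0.25, FDR 6.09e-05, edgeR). *Dll3* had 3.46 and 4.06 CPM in ESCs and 87.7, 29.8 and 51.9 CPM in NPCs, a log2 difference of 3.85 (SE 0.53, FDR 8.03e-05, edgeR). The 3 NPC values of *Dll3* were far apart but all above both ESC values. *Jag1*, the Serrate-type ligand, did not pass (0.51, SE 0.37, FDR 0.242, edgeR), with 35.6 and 47.2 CPM in ESCs and 40.9, 97.7 and 44.6 CPM in NPCs.

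Among the repressors *Hes5* differed most. It had 3 and 0 reads in the WT ESC samples and 639, 168 and 686 reads in the WT NPC samples (52.0, 15.6 and 50.3 CPM). The ratio of the summed and depth-scaled counts was 290.2, with an exact 95% counting interval of 99.1 to 1409 that covers counting error only, and the edgeR FDR was 1.34e-05. With single libraries left out the fitted log2 difference, 7.96 with all of them, ranged from 6.91 to 11.65, the latter without the ESC library that had 3 reads, so its size is poorly set while the call held (FDR at most 0.000387). *Hes6* rose by 2.59 on the log2 scale (SE 0.15, FDR 5.43e-08, edgeR), from 26.9 and 27.3 CPM to 170, 149 and 186 CPM. *Hey1* rose by 3.85 (SE 0.36, FDR 4.83e-06, edgeR), from 5.29 and 5.44 CPM to 101, 41.8 and 97.0 CPM. *Hes1*, by contrast, was not called (0.23, SE 0.30, FDR 0.516, edgeR). Its 36.7 and 66.9 CPM in ESCs overlapped the 42.2, 80.3 and 65.4 CPM in NPCs. The higher ESC value was that of replicate 2, which had 3618 CPM of feeder fibroblast markers. With single samples left out the log2 difference of *Hes1* ranged from -0.13 to 0.73. In the KO samples, which are other cultures, the same contrast also called 7 members higher, each of the 7 named here.

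WT NPC replicate 2 stood apart from the other 2 WT NPC samples in several members, being lowest for *Hes5*, *Hes6*, *Hey1*, *Dll3* and *Notch3* and highest for *Jag1*, *Hes1* and *Notch2*. It is also the WT sample with 219 CPM of oligodendrocyte markers. Without it, *Notch2* was called lower in NPCs (log2 difference -0.48, FDR 0.015, edgeR). The other calls of this contrast held with each sample left out in turn.

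The rest of the pathway was described by a list of 71 further genes, of which 66 were tested. In NPCs 30 were higher and 20 lower than in ESCs (FDR under 0.05, edgeR), with a median log2 difference of 0.55. Among the large increases were those of *Lfng*, a glycosyltransferase that modifies Notch receptors (5.60, SE 0.17), *Dner*, a Notch ligand of neurons (5.16, SE 0.19), and *Tle2*, a co-repressor (4.69, SE 0.43). The largest decreases were those of the proneural factor *Neurod1* (-9.04, SE 0.43), the receptor *Notch4* (-3.78, SE 0.33), *Rbpj* (-2.57, SE 0.12) and the histone deacetylase *Hdac1* (-2.55, SE 0.16). *Rbpj*, the DNA-binding partner of the receptors, was thus higher in ESCs (225 to 277 CPM) than in NPCs (38.6 to 47.5 CPM) while 2 receptors and 3 of the repressors were lower.

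The second tissue comparison was between WT PFC and WT NPCs, and it shares the WT NPC samples with the first. Culture or tissue, embryonic or adult age and cell make-up change together in it and cannot be told apart. The share of entries counted as not uniquely aligned also differed, at 33.8% to 34.1% in WT NPCs and 7.62% to 8.90% in WT PFC. Of the 10 members, 9 were lower in PFC and 0 higher (FDR under 0.05, edgeR), where 35.7% of all genes tested were lower, 39.5% higher and 75.2% changed. The members' median log2 difference was -2.91, beside 0.07 over all genes. Among ligands and receptors, *Dll3* fell by 4.80 on the log2 scale (SE 0.49) to 1.57 to 2.35 CPM, *Dll1* fell by 4.18 (SE 0.25) to 5.17 to 6.27 CPM, *Notch3* fell by 4.10 (SE 0.25) to 9.56 to 19.5 CPM and *Notch1* fell by 3.72 (SE 0.18) to 19.0 to 33.2 CPM. *Jag1* fell by 2.84 (SE 0.37) and *Notch2* by 0.82 (SE 0.23, FDR 0.00656, edgeR), the smallest of the called changes. Of the repressors, 3 were called. *Hes6* fell by 2.97 (SE 0.13) to 20.2, 20.9 and 24.1 CPM, *Hes5* fell by 1.85 (SE 0.42, FDR 0.00256, edgeR) to 13.2, 9.68 and 10.3 CPM, and *Hes1* fell by 1.83 (SE 0.28). *Hey1* was the exception, with 80.0, 75.5 and 78.3 CPM in PFC inside the NPC range of 41.8 to 101 CPM. Its log2 difference was -0.05 (SE 0.26, FDR 0.864, edgeR), and it was 0.04 with RLE size factors. Without WT NPC replicate 2 it became -0.36 with an FDR of 0.0022 (edgeR).

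Of the 66 other pathway genes tested, 20 were higher and 33 lower in PFC than in NPCs. *Tcf12*, a partner of proneural factors, fell by 3.64 (SE 0.11), the Notch ligand-like gene *Dlk1* fell by 3.56 (SE 0.72) and the co-activator gene *Maml2* fell by 3.50 (SE 0.27). *Neurod1* rose by 7.92 (SE 0.43), *Dlk2* by 4.45 (SE 0.30), the ubiquitin ligase gene *Neurl1a* by 3.99 (SE 0.21) and the Notch target *Heyl* by 3.66 (SE 0.38).

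The third tissue comparison, between the WT brain regions, gave 1 call among the 10 members, where 6.79% of genes were lower in PFC than in STR, 5.51% higher and 12.3% changed. *Dll1* had 6.27, 5.76 and 5.17 CPM in PFC and 17.9, 13.6 and 12.6 CPM in STR, with no overlap. It was lower in PFC by 1.39 on the log2 scale (log2 difference -1.39, SE 0.25, FDR 0.00405, edgeR), and the call held with each WT brain sample left out. Same-numbered PFC and STR samples deviated together in all 6 pairs (r from 0.143 to 0.392), so the 6 WT samples were also fitted with replicate as a block, and 5 members were then called, where 34.8% of genes were (18.2% higher and 16.6% lower). In KO samples *Dll1* had 5.77, 7.66 and 5.63 CPM in PFC and 17.8, 15.5 and 12.4 CPM in STR, and the same contrast gave -1.26 (FDR 0.0108, edgeR).

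*Hes5* was lower in PFC in both genotypes. Its WT values were 13.2, 9.68 and 10.3 CPM in PFC and 20.7, 15.3 and 16.3 CPM in STR, without overlap, a log2 difference of -0.69 (SE 0.43) that did not pass (FDR 0.376, edgeR) in the fit of all 11 WT samples and passed with the block (-0.68, FDR 0.000407, edgeR). In the KO samples it was -0.66 and passed (FDR 0.0139, edgeR), with 11.3, 14.1 and 13.5 CPM in PFC and 20.4, 23.5 and 17.4 CPM in STR. *Notch3* gave -0.38 (SE 0.25, FDR 0.399, edgeR) in WT, -0.40 with the block (FDR 0.0261, edgeR) and -0.80 (FDR 0.00152, edgeR) in KO samples. Its WT values of 11.4, 19.5 and 9.56 CPM in PFC overlapped 17.3, 21.0 and 14.0 CPM in STR, and its KO values of 12.4 to 15.8 CPM in PFC did not overlap 21.0 to 27.0 CPM in STR. *Hes1* went in the other direction in value, with 16.45 to 20.2 CPM in WT PFC and 8.76 to 13.6 CPM in WT STR (0.60, SE 0.29, FDR 0.248, edgeR), so its groups did not overlap although it was not called. With the block it passed (0.61, FDR 0.00273, edgeR), as did *Jag1* (-0.61, FDR 0.00689, edgeR).

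The spread in the fit of 11 WT samples includes that of the NPC and ESC cultures. With the 12 brain samples of both genotypes in a fit of their own, a choice made after the data were seen, 5 members were called: *Dll1* (-1.32, FDR 7.55e-07), *Hes5* (-0.68, FDR 0.000171), *Notch3* (-0.59, FDR 0.0099) and *Jag1* (-0.54, FDR 0.00801) lower and *Hes1* (0.70, FDR 7.53e-05) higher in PFC, all by edgeR. In that fit 6298 genes were called (39.8%, with 20.1% higher and 19.8% lower), against 2174 in the fit of WT samples. Without WT PFC replicate 2, in the fit of WT samples, *Notch3* was called too (-0.76, FDR 0.0495, edgeR). *Notch1*, *Notch2*, *Dll3*, *Hes6* and *Hey1* were not called in any of these fits.

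**Figure D2:**
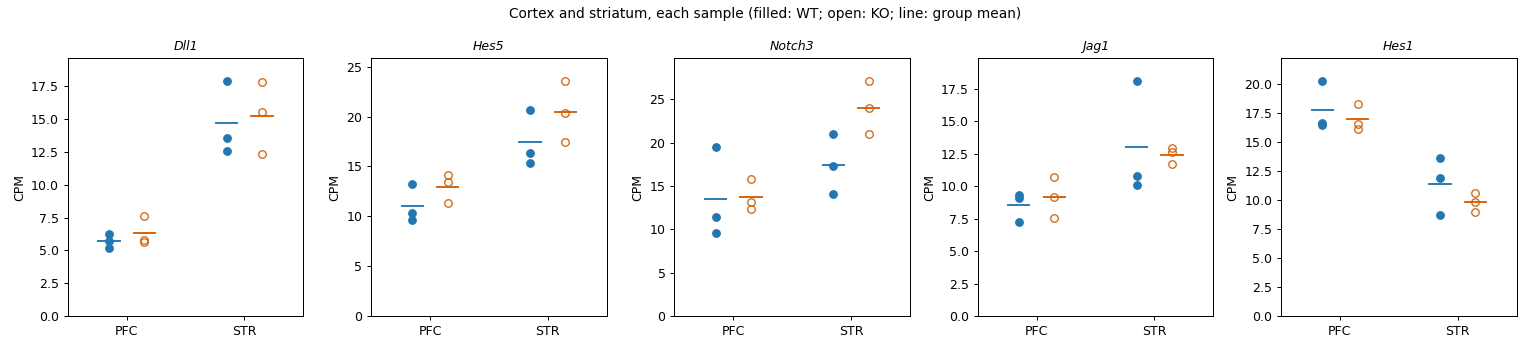
CPM of 5 members in PFC and STR (vertical axes from 0, 1 scale per gene); points are samples, filled for WT and open for KO, and lines are group means. *Dll1* and *Hes5* are lower in PFC than in STR without overlap within either genotype, and *Hes1* is higher.

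Of the other pathway genes, 4 were higher and 2 lower in PFC than in STR of 66 tested. *Neurod1* (2.36, SE 0.26), the E3 ligase gene *Dtx4* (1.44, SE 0.19), *Tcf4* (0.96, SE 0.14) and the bHLH inhibitor gene *Id2* (0.48, SE 0.12) were higher. *Dlk1* (-6.11, SE 0.73), at 1.72 to 2.09 CPM in WT PFC and 112 to 142 CPM in WT STR, and the co-repressor gene *Tle1* (-0.60, SE 0.17) were lower. The calls of *Id2* and *Tle1* were lost when single samples were left out. With the replicate block these 6 were called too, and the counts were 14 higher and 11 lower of 65 tested.

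In ESCs the KO and WT cultures were set side by side without a test. *Hes6* had 26.9 and 27.3 CPM in WT and 42.9 and 46.3 CPM in KO cultures, a log2 difference of 0.72 (SE 0.13). Both KO cultures were above both WT cultures, as the choice of genes required. The other member without overlap was *Dll3*, with 3.46 and 4.06 CPM (34 and 47 reads) in WT and 6.84 and 7.72 CPM (76 and 78 reads) in KO cultures, a log2 difference of 0.95 (SE 0.25). Among all 15080 genes tested in ESCs, 11.3% had both KO cultures above both WT cultures and 9.46% had both below. *Hes5* had 3 and 0 reads in WT and 2 and 1 reads in KO cultures and did not pass the expression filter, so 9 of the 10 members had a fitted value. All 9 were above 0, with a median of 0.20 beside 0.01 over all genes, *Hes6*, chosen for this, included. Leaving out single cultures turned 5 of the 9 below 0, with lowest values of -0.07 for *Notch1*, -0.14 for *Notch2*, -0.13 for *Jag1*, -0.41 for *Hes1* and -0.05 for *Hey1*. *Hes6* (0.60 to 0.82) and *Dll3* (0.80 to 1.09) moved less, and *Dll1* ranged from 0.20 to 1.15.

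In the remaining members the genotypes overlapped or differed by little. *Dll1* had 39.2 and 20.2 CPM in WT and 60.0 and 32.7 CPM in KO cultures (0.63, SE 0.44). It was higher in KO for each replicate number, and the culture with few feeder fibroblast markers had the higher value in both genotypes. *Hes1* had 36.7 and 66.9 CPM in WT and 41.0 and 79.5 CPM in KO cultures (0.22, SE 0.54), and *Jag1* had 35.6 and 47.2 CPM in WT and 39.5 and 55.3 CPM in KO cultures (0.20, SE 0.28). For both, the cultures with more feeder fibroblast markers were higher. *Hes6* and *Dll3* were near the same level in both cultures of a genotype. The part of feeder cells in any of these values was not tested. The receptors were close to 0, with *Notch1* at 55.4 and 56.2 CPM in WT and 55.7 and 56.7 CPM in KO cultures (0.01, SE 0.10), *Notch2* at 0.06 (SE 0.17) and *Notch3* at 0.11 (SE 0.11). *Hey1* had 5.29 and 5.44 CPM in WT and 5.40 and 5.64 CPM in KO cultures (0.04, SE 0.22).

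**Figure D3:**
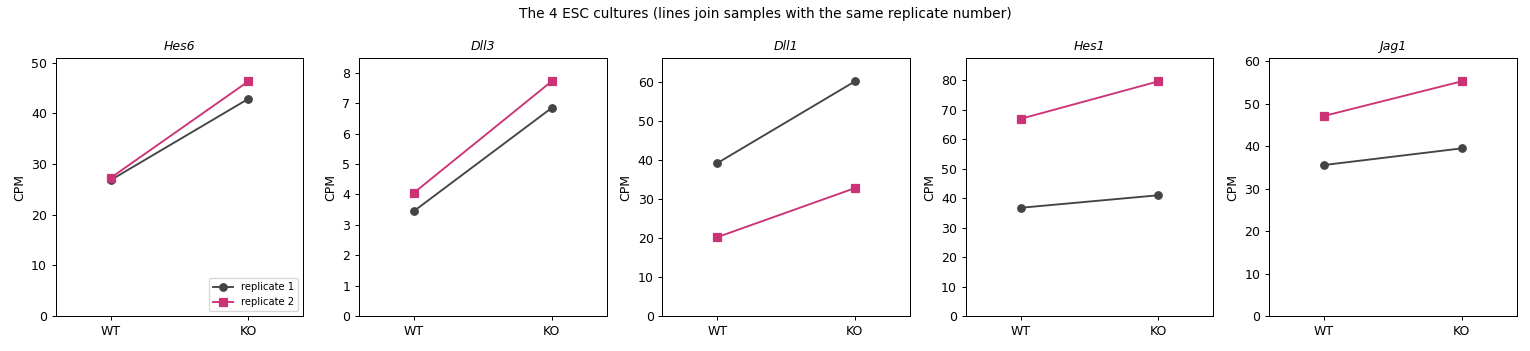
CPM of 5 members in the 4 ESC cultures (vertical axes from 0); lines join WT and KO cultures that carry the same replicate number, circles for replicate 1 and squares for replicate 2. *Hes6* and *Dll3* separate by genotype, with WT at 26.9 and 27.3 against KO at 42.9 and 46.3 for *Hes6*, while *Dll1*, *Hes1* and *Jag1* separate by replicate number.

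Of the 71 other pathway genes, 62 had a fitted value in ESCs, with 34 above and 28 below 0 and a median of 0.05. Chosen after their values were seen, 3 proneural or neurogenic genes that were higher in KO cultures are given here. *Insm1* had the highest value of the 62. The other proneural genes of the list are not given, so these 3 do not describe that class. *Insm1*, a zinc finger gene of neurogenesis, had 10.8 and 12.9 CPM in WT and 21.0 and 26.3 CPM in KO cultures (log2 difference 0.998). *Neurod1* had 33.0 and 35.1 CPM in WT and 48.2 and 57.6 CPM in KO cultures (0.64). *Neurog1* was low, at 0.712 and 1.123 CPM in WT and 1.89 and 1.68 CPM in KO cultures (0.93).

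In NPCs, PFC and STR the effect of *Phf8* loss on the members was tested. By the quasi-likelihood test of edgeR, 0 of the 10 members were called in each of these comparisons (FDR under 0.05). The fits hold no replicate block, though the numbers pair the NPC samples. With the block 0 members were called in NPCs too. The share of all genes called was 0.00697% in NPCs (1 gene, *Phf8*), 0.638% in PFC (98 genes) and 0% in STR. In STR *Phf8* itself, lower in every KO sample, was not called (-1.37, FDR 0.0956, edgeR), and in NPCs its call was lost with any sample left out (FDR 0.154 to 0.544), so 0 calls among the members do not show that they were unaffected. At an unadjusted p under 0.05, 1 member passed in NPCs (*Hes6*, higher in KO), 0 in PFC and 1 in STR (*Notch3*, higher in KO), where 3.03%, 11.2% and 8.70% of all genes did. DESeq2 and edgeR's exact test also called 0 members in each tissue. The log2 differences ranged from -0.37 to 0.26 in NPCs, from -0.24 to 0.33 in PFC and from -0.21 to 0.72 in STR.

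**Figure D4:**
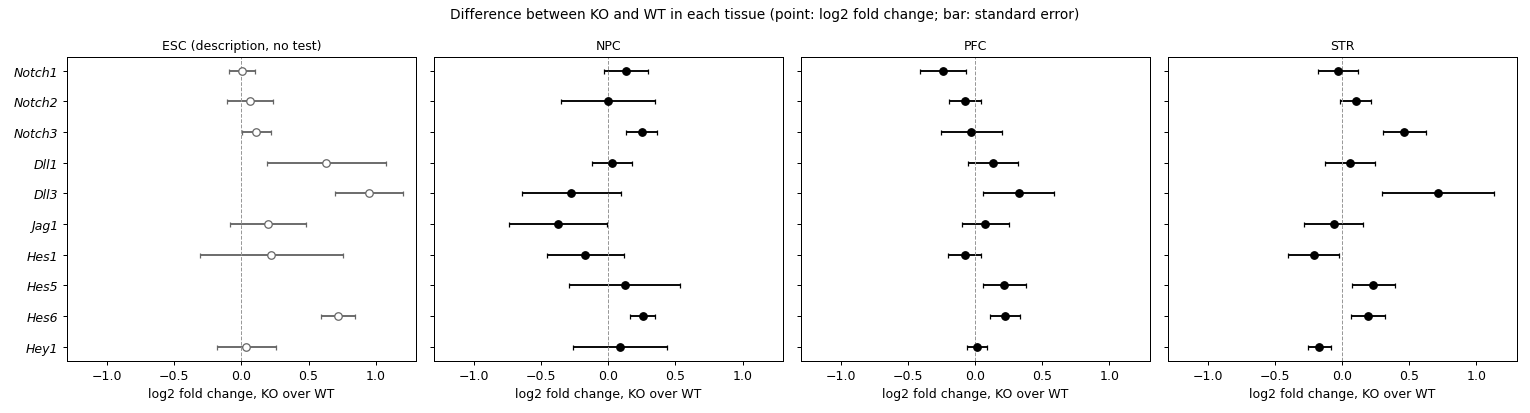
log2 fold change of KO over WT (horizontal axis) for each member in each tissue, with the standard error as a bar; ESC values are open and were not tested, and *Hes5* has none there. In NPCs, PFC and STR no member passed an FDR of 0.05, and *Hes6* was above 0 in each. Its ESC value is the one for which the genes were chosen.

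Apart from ESCs, for which it was chosen, *Hes6* was higher in mean value in KO samples of NPCs, PFC and STR, without a call. In NPCs it had 170, 149 and 186 CPM in WT and 201, 195 and 207 CPM in KO samples, without overlap, where 3.56% of genes had every KO sample above every WT sample. Its log2 difference was 0.26 (SE 0.09, FDR 1.0, edgeR), and blocking on the replicate number, which pairs the NPC samples, gave 0.26 with an FDR of 0.352. WT replicate 2, the lowest, is the sample that stood apart in other members, and without it the difference was 0.18. That fit kept KO replicate 2, the sample with the same number, which had 411 CPM of oligodendrocyte markers. In PFC *Hes6* had 20.2, 20.9 and 24.1 CPM in WT and 26.4, 26.8 and 23.1 CPM in KO samples (0.22, SE 0.11, FDR 0.510, edgeR), and the groups overlapped. In STR it had 18.9, 24.5 and 20.9 CPM in WT and 25.0, 25.3 and 22.7 CPM in KO samples (0.19, SE 0.13, FDR 0.727, edgeR), again with overlap.

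The *Hes6* differences in the 3 tissues led to 1 further fit, added after they were seen, with tissue and genotype as terms over the 18 NPC, PFC and STR samples. This fit restates those differences and adds no support to them. It counts same-numbered PFC and STR samples as separate, although the data pair them by number, so its SEs and FDRs can be too small. There the KO effect on *Hes6* was 0.23 (SE 0.06), and it did not pass over all 16209 genes (FDR 0.126, edgeR), where 0.123% of genes were called. With DESeq2 on the same samples the FDR was 0.0391, where 150 genes were called against 20 with edgeR. Leaving out any 1 of the 18 samples kept the value between 0.20 and 0.26 and its edgeR FDR between 0.0978 and 0.236. *Notch3* followed with 0.24 (SE 0.11, FDR 0.506, edgeR). The ESC value was 0.72, and whether it differs from those of the other tissues was not tested.

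**Figure D5:**
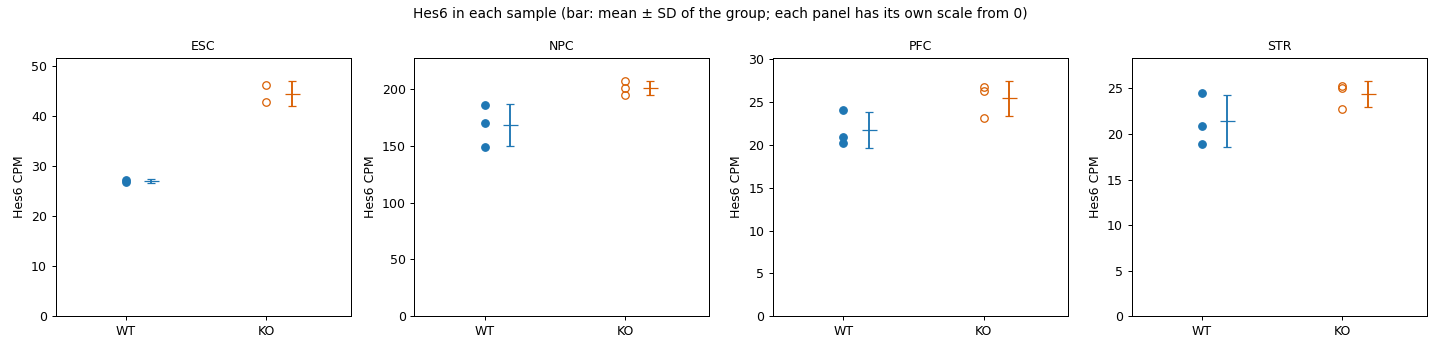
*Hes6* CPM in each sample (vertical axes from 0, 1 scale per tissue), filled for WT and open for KO, with bars for the mean ± SD of the group. KO and WT do not overlap in ESCs and NPCs (149 to 186 in WT and 195 to 207 in KO NPCs) and overlap in PFC and STR.

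Of the receptors, *Notch3* had the largest differences by genotype. In STR it had 17.3, 21.0 and 14.0 CPM in WT and 27.0, 21.0 and 24.0 CPM in KO samples (0.47, SE 0.16, FDR 0.468, edgeR), and the highest value was that of KO replicate 1, the sample with hypothalamus markers. Without that sample it was 0.36. In NPCs it had 268, 198 and 232 CPM in WT and 270, 284 and 274 CPM in KO samples (0.25, SE 0.11, FDR 1.0, edgeR), with WT replicate 2 lowest. In PFC it was at -0.03 (SE 0.23, FDR 0.984, edgeR). *Notch1* was at -0.24 (SE 0.17, FDR 0.692, edgeR) in PFC, with 28.1, 33.2 and 19.0 CPM in WT and 26.3, 22.2 and 21.2 CPM in KO samples. *Notch2* lay between -0.08 and 0.10 in the 3 tissues.

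The ligands were not called either. *Dll3*, the member besides *Hes6* without overlap in ESCs, was at -0.27 in NPCs (SE 0.37), 0.33 in PFC (SE 0.26) and 0.72 in STR (SE 0.42, FDR 0.684, edgeR). It rested on few reads in the brain, 15 to 25 per PFC sample and 10 to 55 per STR sample. With single samples left out the STR value ranged from 0.36 to 1.12. In PFC its 2.38, 2.74 and 2.57 CPM in KO samples lay above 2.31, 1.57 and 2.35 CPM in WT samples, where 8.70% of all genes had every KO sample above. *Dll1* was at 0.03 in NPCs (SE 0.15), 0.13 in PFC (SE 0.19) and 0.06 in STR (SE 0.19). *Jag1* was at -0.37 in NPCs (SE 0.36), where WT replicate 2 had 97.7 CPM against 38.6 to 56.7 CPM in the other 5 samples.

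Among the other repressors, *Hes5* was at 0.12 in NPCs (SE 0.41), 0.22 in PFC (SE 0.16) and 0.23 in STR (SE 0.16, FDR 0.748, edgeR). In NPCs WT replicate 2 had 15.6 CPM and the other 5 samples 38.1 to 52.0 CPM. Without it, and with KO replicate 2 kept, the value was -0.25. *Hey1* was at 0.09 in NPCs (SE 0.35) and 0.01 in PFC (SE 0.08). In STR all KO samples (65.3, 77.8 and 75.9 CPM) were below all WT samples (85.0, 82.0 and 80.1 CPM), where 6.30% of genes were, and the difference of -0.17 did not pass (SE 0.08, FDR 0.617, edgeR). *Hes1* lay between -0.21 and -0.08 in the 3 tissues.

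Whether the genotype effect differed between the brain regions was tested as an interaction, and 0 of the 10 members passed, beside 1 of 16028 genes (0.00624%). At an unadjusted p under 0.05 there were likewise 0 members, against 6.41% of all genes, and DESeq2 also called 0. The values given here come from a fit that does not pair PFC and STR samples by number. With a block that does, 0 members passed too. The largest difference was that of *Notch3*, -0.46 for PFC minus STR (SE 0.31, FDR 0.939, edgeR), and the smallest FDR that of *Hey1* (0.21, SE 0.11, FDR 0.829, edgeR). *Hes6* was at 0.05 (SE 0.17).

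In the other 71 pathway genes, 1 was called by genotype. *Neurl1b*, a ubiquitin ligase gene for ligand endocytosis, had 84.0, 86.6 and 90.1 CPM in WT and 117, 118 and 105 CPM in KO PFC, a log2 difference of 0.37 (SE 0.07, FDR 0.0474, edgeR), of 65 genes tested. The call was lost, with FDRs of 0.086 to 0.256, when any single sample other than WT replicate 3 was left out. It was also lost with the replicate block (FDR 0.0515, edgeR), although the numbers were not taken as pairing WT and KO samples in PFC. *Mfng*, a receptor glycosyltransferase, was at -0.65 (SE 0.18, FDR 0.131, and 0.0448 by the exact test), *Id4* at -0.26 (FDR 0.236) and the Notch target *Nrarp* at -0.28 (FDR 0.255), all edgeR. In STR 0 of 65 were called. The 4 smallest p-values there belonged to *Heyl* (0.70, SE 0.16, FDR 0.397), *Dtx1* (0.27, FDR 0.414), *Numb* (-0.29, FDR 0.449) and *Lfng* (0.27, FDR 0.469), by edgeR. *Heyl*, a Hey family gene known from vascular smooth muscle, had 8.39, 6.62 and 8.52 CPM in WT and 12.7, 12.5 and 13.0 CPM in KO STR, without overlap, and 0.70 without KO replicate 1. In STR the mural cell markers summed to 185 to 233 CPM in WT and 184 to 238 CPM in KO samples. The part of mural cells in the *Heyl* values was not tested. In NPCs 0 of 62 were called, with *Dner* at 0.33, *Tle4* at -0.16 and *Dtx2* at -0.33, each with an FDR of 1.0 (edgeR).

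The genes whose pattern was most like that of 2 members were sought by Pearson's r of log2 CPM over the 22 samples among 18079 genes, as a description: the samples fall into 4 tissues, which largely set such values. For *Hes6* these were *Igfbp3*, *Nisch*, *Fmnl2*, *Sox4* and *Qk* (r from 0.989 to 0.984). For *Hes5* they were *Slc2a12*, *Grip1*, *Gm20515*, *Zfp629* and *Ak3* (r from 0.985 to 0.981).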

How the data were processed

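RNA-seq libraries of 22 mouse samples (Illumina TruSeq RNA kit) were aligned by the authors with STAR to mm10/GRCm38 and counted with HTSeq on Ensembl release 75. The tables they deposited hold unnormalized counts, one value per gene and sample. The submitters' processing notes also name CASAVA 1.7. Versions of STAR and HTSeq and the strand setting of the brain tables are not given in the sources used here. Rows that name no gene (9.42% to 16.8% of uniquely aligned reads fell on no feature) stayed out of library sizes and tests. Of 39179 gene identifiers, 37693 matched GENCODE M21 on GRCm38, holding 99.709% of counts.

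Groups came from the labels. KO and WT were compared within each tissue, and WT tissues in 1 fit of 11 samples, with edgeR 4.0.16 in R 4.3.3 (robust quasi-likelihood test, TMM, its expression filter), Benjamini-Hochberg adjustment over all genes tested and an FDR under 0.05. Printed CPM and RPKM share 1 TMM scaling over all 22 samples. Alternatives were DESeq2 1.42.0, the exact test, RLE factors, no filter, each sample left out, KO in place of WT and a replicate block. The pipeline was tested on simulated data. Replicates of a group differed by more than counting noise (the chi-square divided by its degrees of freedom was at least 1.89). The labels share replicate numbers between genotypes. Deviations of same-numbered NPC samples correlated at 0.569, 0.705 and 0.524, so the numbers were taken as pairing in NPCs from the data, not the design. In PFC (-0.03 to 0.05) and STR (-0.02 to 0.13) they were not. Between PFC and STR samples of 1 genotype the correlations were 0.186 to 0.392 in WT and 0.143 to 0.189 in KO, each sample matching its own number best, so the numbers were taken as pairing the regions, again from the data.

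The members and lists were chosen with earlier results of these data known. All members were named. Other pathway genes were named when called by genotype, otherwise up to 4 with the smallest p per comparison, and up to 4 called genes per direction between tissues. The proneural or neurogenic genes given for ESC genotypes were picked by value, outside this rule. One pathway gene that this rule names is not reported here.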

Additional observations from a re-analysis of the deposited data

How the results depend on the processing

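In NPCs, PFC and STR, 0 of the 10 members were called by genotype under RLE size factors, no filter, DESeq2, the exact test, the replicate block or with any sample left out, and the interaction called 0 as well. The 7 members higher in NPCs than in ESCs and the 9 lower in PFC than in NPCs were called under every other setting run. With samples left out these counts ranged from 7 to 8 and from 9 to 10. *Dll1* was lower in PFC than in STR throughout. The count for PFC against STR was 1, and it was 5 with the replicate block, 3 in the KO samples, 3 in a fit of the 6 WT brain samples and 5 in that of the 12 brain samples (the last 2 chosen after seeing the data), and 1 to 2 with samples left out. With the block, whose numbers pair the regions, *Notch3* (-0.40), *Jag1* (-0.61), *Hes5* (-0.68) and *Hes1* (0.61) joined *Dll1*. In the fit of 18 samples, added after seeing the data, DESeq2 called 1 member where edgeR called 0. That fit does not pair PFC with STR samples, so its FDRs can be too small. The median of the 9 ESC values ranged from -0.0135 to 0.249 with cultures left out, reaching -0.0135 without WT replicate 1. The ESC numbers give only 2 pairs (r = 0.876, a hint from the data), and with the block *Hes6* stayed at 0.72. The cause of these changes was not tested.

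Counts over all genes moved by more than 1.5 times in these cases. For NPC KO against WT there was 1 call, and 2 without the filter or with the exact test and 3 with DESeq2 or the replicate block, and 0 with any sample left out. For PFC there were 98, and 379 without the filter, 182 with DESeq2 and 376 with the exact test, and 2 to 154 with samples left out. For STR there were 0, and 27, 54 and 93 by the same settings and 3 with the block, and 0 to 2 with samples left out. For PFC against STR there were 2174, and 5547 with the block, 3791 in the 6 WT brain samples, 6298 in the 12 brain samples, and 1234 to 1552 with samples left out. For the interaction there was 1, and 2 without the filter, 19 with DESeq2 and 3 with the block, and 1 to 3 with samples left out. For the fit of 18 samples there were 20, and 13 without the filter, 150 with DESeq2 and 58 with a block. That block pairs WT and KO samples of the same number within each tissue, not PFC with STR samples. The same fit gave 45 without the NPC samples, 1 without the PFC or the STR samples, and 2 to 21 with samples left out. RLE size factors shifted all values of PFC against NPC by 0.09 on the log2 scale.

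Values that changed sign were all uncalled. *Notch2* in NPCs was 0.00 without the filter (0.0036) and 0.01 with the block (0.0081), and *Notch3* in PFC was 0.0033 with DESeq2 and 0.0175 with the block. In KO samples NPC against ESC gave -0.0196 for *Jag1* and -0.1275 for *Hes1*, and PFC against STR gave -0.0525 for *Notch1*, 0.0623 for *Hes6* and 0.1185 for *Hey1*. For *Hey1* PFC against NPC was 0.0398 with RLE size factors and 0.0363 with DESeq2, and for *Hes6* PFC against STR was 0.0215 and 0.0207. In the 12 brain samples PFC against STR was 0.0251 for *Hes6* and 0.0024 for *Hey1*. With cultures left out in turn, the ESC genotype values, which were not tested, ranged for *Notch1* from -0.0665 to 0.0698, *Notch2* from -0.1353 to 0.232, *Jag1* from -0.1339 to 0.4623, *Hes1* from -0.4101 to 0.7512 and *Hey1* from -0.0543 to 0.119. With samples left out, the NPC genotype values ranged for *Notch1* from -0.04 to 0.2548, *Notch2* from -0.3072 to 0.3616, *Dll1* from -0.1365 to 0.1515, *Dll3* from -0.5755 to 0.1821, *Jag1* from -0.5986 to 0.1513, *Hes1* from -0.3939 to 0.0555, *Hes5* from -0.2549 to 0.3651 and *Hey1* from -0.2167 to 0.2803. In PFC they ranged for *Notch2* from -0.1523 to 0.0099, *Notch3* from -0.20 to 0.3692, *Dll1* from -0.0219 to 0.21, *Jag1* from -0.0497 to 0.1975, *Hes1* from -0.1302 to 0.0247 and *Hey1* from -0.0228 to 0.062. In STR they ranged for *Notch1* from -0.1512 to 0.0988, *Dll1* from -0.0756 to 0.2288 and *Jag1* from -0.2167 to 0.2592. For NPC against ESC they ranged for *Notch2* from -0.4777 to 0.0827, *Jag1* from -0.0006 to 0.7331 and *Hes1* from -0.1313 to 0.7252, and for PFC against NPC for *Hey1* from -0.3591 to 0.1454. For PFC against STR they ranged for *Notch1* from -0.0891 to 0.3106, *Notch2* from -0.134 to 0.0549 and *Hes6* from -0.1072 to 0.091, and for the interaction for *Hes6* from -0.0672 to 0.1272. A fit that leaves 1 ESC culture in a group assumes that it varies like the other group.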
